A study of Homo sapiens with 8 samples.

Results

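The inhibitors and activating partners of the G1 cyclin-dependent kinases were followed through 4 groups of human colon cancer cells. The set was 10 genes: the Cip/Kip inhibitors CDKN1A, CDKN1B and CDKN1C, the INK4 inhibitors CDKN2A, CDKN2B and CDKN2C, the D cyclins CCND1, CCND2 and CCND3, and the kinase CDK6. A gene was taken from the probe sets whose annotation names that gene alone, and was read by the probe set with the highest mean over the 8 arrays. By this rule 9 of the 10 genes were measured, with 27 probe sets, among 19775 genes in all. No probe set of the annotation used names CDKN2C alone, so CDKN2C was not analysed here.

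Each group had 2 arrays, 1 per sample. HT29 spheres, labelled 1st sphere, were HT29 cells kept in DMEM-F12, for which no serum is listed, with N2 Plus supplement and the growth factors EGF and bFGF at 10 ng/ml apiece, and HT29 parental cells were kept in DMEM with 10% fetal bovine serum. The stable SW480 line labelled Snail and the stable SW480 line with a vector control were both kept in high-glucose DMEM with 10% fetal bovine serum. HT29 and SW480 are established lines from colorectal adenocarcinomas. The labels do not say whether a stable line was 1 clone or a pool, nor whether partner arrays stem from different cultures, so p-values reflect only how far these arrays scatter, and that scatter may be technical. Every sphere array differs from the parental arrays in medium as well as in form, and the 2 cannot be told apart.

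Cells commit to a new round of division in G1. D cyclins, made in response to growth factors, bind the kinases CDK4 and CDK6, which begin to phosphorylate the retinoblastoma protein RB1, and cyclin E with CDK2 completes it, freeing E2F factors that switch on the genes of DNA replication. INK4 proteins bind CDK4 and CDK6 and keep D cyclins off them, while Cip/Kip proteins bind whole cyclin-kinase complexes, above all those of CDK2. In the colon, CDK inhibitors rise as crypt cells stop dividing, and CCND1 and CDKN2A are often altered in colorectal tumours. In a G1 arrest, CDK inhibitors are often raised and E2F target genes low. The arrays measured RNA, and neither protein nor the share of cells in each phase was measured.

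The promoter windows of 3 inhibitors are shown because these genes gave the largest rise and 2 of the falls described next. Each is 300 bases around a gene start, most of them before it, from RefSeq on build GRCh38.p14, printed 5′ to 3′ on the gene's strand. Capitals mark the GC box GGGCGG, a sequence bound by SP1-type factors, on either strand. The CDKN1A window is at chr6:36678464-36678763 (plus strand). CDKN2A has 2 starts, the upstream one, known as the ARF start, at chr9:21995275-21995574 and the downstream one, known as the INK4a start, at chr9:21974808-21975107 (both minus strand). The CDKN2B window is at chr9:22009256-22009555 (minus strand).
CDKN1A: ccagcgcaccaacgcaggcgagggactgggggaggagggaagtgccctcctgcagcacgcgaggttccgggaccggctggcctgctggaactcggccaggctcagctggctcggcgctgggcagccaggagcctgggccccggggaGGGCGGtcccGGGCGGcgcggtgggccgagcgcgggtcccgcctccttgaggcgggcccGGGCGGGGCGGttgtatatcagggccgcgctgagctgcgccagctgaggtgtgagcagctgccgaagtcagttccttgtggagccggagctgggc
CDKN2A, upstream start: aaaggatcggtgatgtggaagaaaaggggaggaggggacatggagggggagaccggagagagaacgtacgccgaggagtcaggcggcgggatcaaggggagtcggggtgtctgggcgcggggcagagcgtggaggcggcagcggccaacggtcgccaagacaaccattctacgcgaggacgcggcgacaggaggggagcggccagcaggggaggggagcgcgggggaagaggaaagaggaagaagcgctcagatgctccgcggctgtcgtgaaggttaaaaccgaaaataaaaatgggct
CDKN2A, downstream start: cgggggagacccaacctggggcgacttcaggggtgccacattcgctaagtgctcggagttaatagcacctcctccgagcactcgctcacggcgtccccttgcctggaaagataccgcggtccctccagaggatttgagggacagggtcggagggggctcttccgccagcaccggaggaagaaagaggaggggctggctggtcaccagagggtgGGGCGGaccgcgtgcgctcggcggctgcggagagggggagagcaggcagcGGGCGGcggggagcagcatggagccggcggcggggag
CDKN2B: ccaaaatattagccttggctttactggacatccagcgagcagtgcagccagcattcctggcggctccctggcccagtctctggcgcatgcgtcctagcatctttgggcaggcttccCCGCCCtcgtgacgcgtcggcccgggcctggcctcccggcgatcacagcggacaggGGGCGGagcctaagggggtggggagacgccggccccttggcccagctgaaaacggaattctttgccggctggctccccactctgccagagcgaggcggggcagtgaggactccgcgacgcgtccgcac

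The CDKN1A window held 4 matches to the GC box, a pair of which share a base. The downstream CDKN2A window and the CDKN2B window held 2 each, and the upstream CDKN2A window held 0. GGGCGG was present on either strand in 45.0% of all 35116 RefSeq promoter windows of the same length. The E-box CAGGTG, the sequence that Snail is known to bind, was searched on both strands and had 0 matches in these 4 windows. Of all windows 20.6% have a match. Among the other windows searched, which cover no start of CDKN1C, CCND1 or CCND2, a CCND3 window held 1 match. The E2F sequences TTTCCCGC and TTTGGCGC had 0 matches on either strand of the 4 windows, and they occur in 1.63% and 0.652% of all windows. These are matches of letters in short windows and no measure of binding.

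Values are log2 expression made by the authors with RMA, a method that corrects background, brings arrays to a common distribution and sums the probes of a probe set. Array medians ran from 5.50 to 5.61 log2 over all probe sets. Changes are log2 differences ± SE from limma, fitted to all 19775 genes with a mean per group, and "rose" or "fell" is used where the p adjusted over all genes (Benjamini-Hochberg) was under 0.05. A gene was called in 31.4% of cases between spheres and parental cells and in 16.2% between the SW480 arrays labelled Snail and vector. With 2 arrays against 2, an exact two-sided permutation test cannot go below p = 0.333, so none was used.

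Partner arrays correlated at 0.995 in spheres, 0.991 in parental HT29 cells, 0.995 in the arrays labelled Snail and 0.995 in vector cells, over all genes. The parental pair stood apart from the others, with 200 genes at least 2-fold apart, against 13 in spheres, 10 in the arrays labelled Snail and 19 in vector cells. SNAI1, which encodes Snail, read 7.07 ± 0.20 in spheres and 6.01 ± 0.20 in parental cells, and 6.35 ± 0.04 in the arrays labelled Snail and 6.35 ± 0.01 in vector cells (SD, n = 2 each). The label Snail was therefore not borne out by this 1 probe set, which would miss a construct that lacks its target stretch, and each direction given for SW480 rests on the label. Of 12 colon epithelium markers 7 had group means above 10 log2 in both HT29 groups and 4 in both SW480 groups, with a summed level of 15.64 to 15.76 in spheres against 15.48 to 15.51 in parental cells, and 15.06 to 15.09 in the arrays labelled Snail against 14.65 to 14.72 in vector cells. CDX2, a defining intestinal factor, had group means between 6.20 and 7.75, and KRT20, a colon keratin, was at 4.18 in the arrays labelled Snail and 4.42 in vector cells. KRT20 rose by 1.59 log2 in spheres, to 12.96 against 11.37 in parental cells. The largest change among the 12 in spheres was that of CDH17, up by 4.74 log2 (limma adjusted p = 4.88e-08). CDH17 read 9.82 there against 5.08 in parental cells, a parental level below the array medians. KRT19 was also up there, by 0.64, and VIL1 was down by 0.77. In the arrays labelled Snail VIL1 was lower by 1.06, and CDH1, KRT8 and KRT19 rose by 0.76, 0.57 and 0.49. Of 13 markers of other cell types none had a group mean above 10, and their summed level was 10.02 to 10.18 log2 in spheres against 9.40 to 9.42 in parental cells, and 9.73 to 9.78 in the arrays labelled Snail against 9.68 to 9.73 in vector cells. In spheres 3 of the 13 rose, LUM, a matrix proteoglycan, at 8.43 against 4.65, PECAM1 and CD3E, a count that was 1 without parental array 1 or sphere array 1 and 5 with arrays centred or quantile normalised; 5 of the 12 colon markers rose and 1 fell. In SW480 1 of the 13 rose and 1 fell, and 3 of the 12 rose and 1 fell, of which 1 or 2 were called without any 1 SW480 array and 2 with the mean of probe sets. Of the 13, 0 were called with the mean of probe sets or without Snail array 2, and 1 without vector array 1 or 2. Of all genes, 12.4% rose and 19.0% fell in spheres, and 8.91% rose and 7.34% fell in the arrays labelled Snail. The SW480 counts of the 13 lie near these shares. In spheres PECAM1 read 6.63 against 6.07 in parental cells and CD3E 5.94 against 5.55, not far above the array medians. Among the 13, ACTA2 rose by 0.73 log2 in the arrays labelled Snail and PECAM1 fell by 0.55. The part of these markers in the results below was not tested.

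In spheres, 7 of the 9 measured genes changed: CDKN1A, CDKN1C, CCND1 and CCND3 rose, and CDKN1B, CDKN2A and CDK6 fell. By direction, 4 of 9 rose against 12.4% of all genes, and 3 of 9 fell against 19.0% of all genes. In the arrays labelled Snail, 4 of the 9 changed: CDKN1A and CCND1 rose, and CDKN2B and CDK6 fell, against 8.91% of all genes higher and 7.34% lower. The plot of levels by array shows these values, and the plot of changes gives their intervals. The count of 4 in SW480 was 2 without vector array 1, without Snail array 1 or without Snail array 2.

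**Figure D1:**
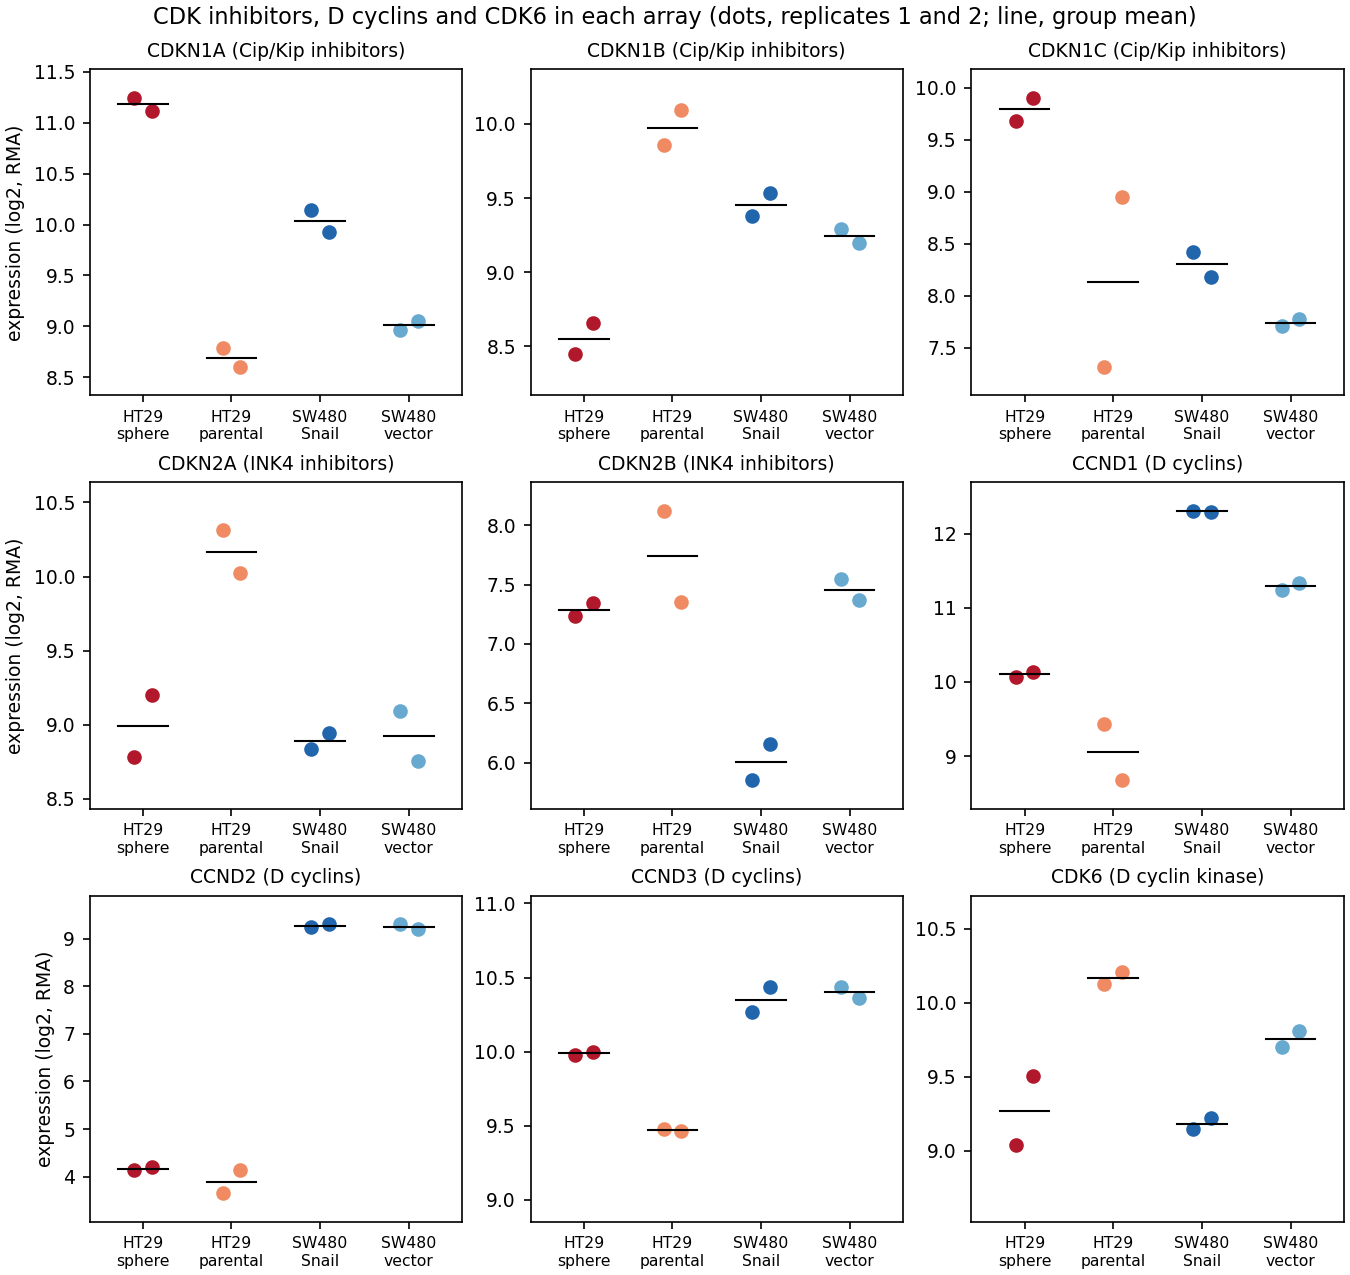
Log2 expression (vertical axis, RMA, a scale of its own in each panel) of the 9 measured genes in HT29 spheres, HT29 parental cells, SW480 arrays labelled Snail and SW480 vector cells, with a dot per array and a line at the group mean. CDKN1A is highest in both sphere arrays (11.25 and 11.11), CCND2 lies above 9 in SW480 alone, and the parental arrays of CDKN1C lie 1.64 log2 apart.

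CDKN1A encodes p21, which binds CDK2 complexes and PCNA and is known to rise when cells stop dividing. Its level was 11.25 and 11.11 log2 in the sphere arrays, against 8.79 and 8.60 in the parental arrays. In SW480 it was 10.15 and 9.93 in the arrays labelled Snail, against 8.96 and 9.05 in the vector arrays. In neither line did the groups overlap. CDKN1A rose 5.62-fold in spheres, by 2.49 ± 0.14 log2 (limma adjusted p = 1.18e-06), and 2.04-fold in the arrays labelled Snail, by 1.03 ± 0.14 (limma adjusted p = 0.000934). The rise was greater in HT29 by 1.46 ± 0.19 log2, tested as the difference of the changes (limma adjusted p = 0.000384). In bulk RNA such as this, more RNA per cell and more cells that express a gene cannot be told apart. CDKN1A has 1 probe set here, so no second reading exists.

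CDKN1B encodes p27, an inhibitor of cyclin E with CDK2 that is abundant in resting cells and is controlled largely by breakdown of the protein. It read 8.45 and 8.66 log2 in the sphere arrays, against 9.86 and 10.09 in the parental arrays, with every sphere value below every parental value. It fell by 1.42 ± 0.14 log2 in spheres, or 2.68-fold (limma adjusted p = 3.92e-05). In SW480 the levels were 9.38 and 9.53 in the arrays labelled Snail, against 9.29 and 9.20 in the vector arrays, a change of 0.21 with a 95% interval from -0.10 to 0.52 (limma adjusted p = 0.366). The HT29 change minus the SW480 change was -1.64 ± 0.20 log2 (limma adjusted p = 0.00023). Thus the 2 best known Cip/Kip inhibitors moved in opposite directions in spheres, CDKN1A up and CDKN1B down.

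CDKN1C encodes p57, an imprinted Cip/Kip inhibitor active in development and in differentiating tissue. It read 9.68 and 9.91 log2 in the sphere arrays, against 7.31 and 8.95 in the parental arrays. The sphere arrays were both above the parental ones, but the parental arrays were themselves 1.64 log2 apart. CDKN1C rose by 1.66 ± 0.39 log2 in spheres (limma adjusted p = 0.00821). The change was 0.84 without parental array 1 and 2.48 without parental array 2, and without sphere array 2 the call was lost, at 1.55 (limma adjusted p = 0.0587). In SW480 it read 8.42 and 8.18 in the arrays labelled Snail, against 7.71 and 7.78 in the vector arrays, without overlap. That change, 0.56 with an interval from -0.31 to 1.43, did not pass (limma adjusted p = 0.389), since the fit shares 1 spread per gene over all 4 groups and the parental pair widens it. With each line fitted alone it passed, at the same 0.56 log2 (limma adjusted p = 0.0241). Over all probe sets, 3 further ones of CDKN1C rose in spheres by 1.74, 1.84 and 1.76, and a dim one, with a mean of 4.35, read -0.26 (limma adjusted p = 0.427). Those 3 end in x_at, a mark for probes that may also match other transcripts, as does the brightest probe set of CDKN2A. The probe sets read for KRT8 above and for CDT1, SKP2, JUN, CXCL8 and HMGB1 below have the same mark.

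**Figure D2:**
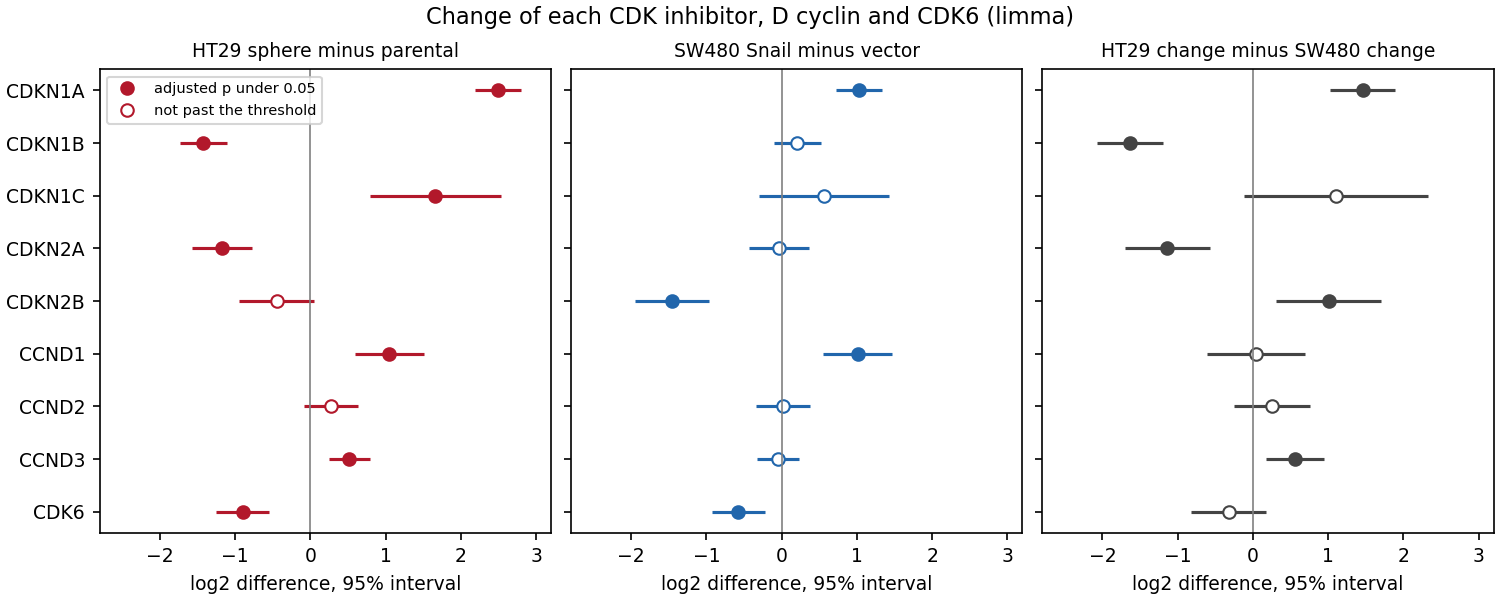
Log2 difference (horizontal axis) of each measured gene in HT29 spheres minus parental cells, in SW480 arrays labelled Snail minus vector, and the HT29 change minus the SW480 change, with 95% intervals from limma; filled dots have an adjusted p under 0.05. CDKN1A lies right of 0 in all 3 panels, CDKN1B and CDKN2A lie left of 0 in spheres, and CDKN2B lies left of 0 in the arrays labelled Snail.

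CDKN2A encodes p16, an INK4 inhibitor of CDK4 and CDK6, and from its upstream start the unrelated protein ARF; which of its transcripts a probe set reads is not given in the sources used here. Its level was 8.79 and 9.20 log2 in the sphere arrays, against 10.31 and 10.02 in the parental arrays. All sphere values lay below the parental ones. CDKN2A fell by 1.17 ± 0.18 log2 in spheres, or 2.26-fold (limma adjusted p = 0.000613). In SW480 the groups overlapped, with 8.84 and 8.94 in the arrays labelled Snail and 9.10 and 8.76 in the vector arrays. That difference was -0.04, with an interval from -0.44 to 0.36 (limma adjusted p = 0.925). The HT29 change minus the SW480 change was -1.14 ± 0.25 log2 (limma adjusted p = 0.00745). A second probe set, with a mean of 7.93, fell by 2.54 ± 0.20 in spheres, and a dim one, with a mean of 5.35, read 0.09 ± 0.19. In SW480 the second probe set read 7.30 and 7.73 in the arrays labelled Snail, against 8.16 and 7.89 in the vector arrays, without overlap. That change, -0.51 ± 0.20, did not pass (limma adjusted p = 0.139).

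CDKN2B encodes p15, the INK4 inhibitor best known as induced by TGF-beta, and lies next to CDKN2A on chromosome 9. It read 7.23 and 7.34 log2 in the sphere arrays, against 8.12 and 7.35 in the parental arrays, where parental array 2 was level with the spheres. The difference of -0.45, with an interval from -0.94 to 0.04, did not pass (limma adjusted p = 0.159). Without parental array 2 it was -0.83 and passed (limma adjusted p = 0.00716). In SW480 it read 5.85 and 6.15 in the arrays labelled Snail, against 7.55 and 7.37 in the vector arrays, well apart. CDKN2B fell there by 1.46 ± 0.22 log2 (limma adjusted p = 0.00197), to a level near the array medians. The difference between the changes was 1.01 ± 0.31 (limma adjusted p = 0.037), a call lost without parental array 2, at 0.62, with the mean of its probe sets, and without any 1 of the sphere or SW480 arrays. A dimmer probe set, with a mean of 5.51, read -0.64 ± 0.24 in the arrays labelled Snail and did not pass (limma adjusted p = 0.11). Of the 2 neighbouring INK4 genes, CDKN2A thus passed in the HT29 comparison and CDKN2B in the SW480 comparison, by the probe sets used. The second CDKN2A probe set read lower in both comparisons.

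CCND1 encodes cyclin D1, which growth factor and Wnt signals are known to induce. It read 10.07 and 10.14 log2 in the sphere arrays, against 9.44 and 8.67 in the parental arrays. In SW480 it read 12.31 and 12.29 in the arrays labelled Snail, against 11.24 and 11.34 in the vector arrays. Neither pair of groups overlapped. CCND1 rose by 1.05 ± 0.21 log2 in spheres (limma adjusted p = 0.00306) and by 1.01 ± 0.21 in the arrays labelled Snail (limma adjusted p = 0.00885). The changes differed by 0.04, with an interval from -0.61 to 0.69 (limma adjusted p = 0.945). In spheres the rise was 0.67 without parental array 2 and 1.43 without parental array 1. In SW480 the call was lost without vector array 1, Snail array 1 or Snail array 2, at 0.97 to 1.02 log2, and with the mean of both probe sets, at 0.65 (limma adjusted p = 0.0641). The second probe set, nearly as bright, changed by only 0.29 ± 0.22 there (limma adjusted p = 0.454), against 1.24 ± 0.22 in spheres.

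CCND2, cyclin D2, was bright in the SW480 arrays and dim in the HT29 arrays. It read 4.15 and 4.20 log2 in the sphere arrays, against 3.65 and 4.14 in the parental arrays, all below every array's median. In SW480 it read 9.24 and 9.31 in the arrays labelled Snail, against 9.30 and 9.20 in the vector arrays. It did not pass in spheres, at 0.28 with an interval from -0.08 to 0.64 (limma adjusted p = 0.231), nor in the arrays labelled Snail, at 0.02 with an interval from -0.34 to 0.38 (limma adjusted p = 0.95).

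CCND3, cyclin D3, is known from crypts and differentiating cells as well as from lymphocytes. It read 9.98 and 10.00 log2 in the sphere arrays, against 9.48 and 9.47 in the parental arrays, with little spread in either group. It rose by 0.52 ± 0.12 log2, or 1.43-fold (limma adjusted p = 0.0089). In SW480 it read 10.27 and 10.44 in the arrays labelled Snail, against 10.44 and 10.36 in the vector arrays, which overlap, a difference of -0.05 with an interval from -0.32 to 0.23. The changes differed by 0.56 ± 0.17 (limma adjusted p = 0.0352), but this call was lost with the replicate number as a block (limma adjusted p = 0.05001), with the mean of its probe sets, and without any 1 of the sphere or SW480 arrays.

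CDK6 encodes the kinase that D cyclins activate alongside CDK4. It read 9.04 and 9.50 log2 in the sphere arrays, against 10.13 and 10.21 in the parental arrays. In SW480 it read 9.14 and 9.22 in the arrays labelled Snail, against 9.70 and 9.81 in the vector arrays. CDK6 was lower without overlap in both comparisons, and fell by 0.90 ± 0.16 log2 in spheres (limma adjusted p = 0.0016) and by 0.57 ± 0.16 in the arrays labelled Snail (limma adjusted p = 0.0339). The SW480 call was lost without any 1 of the 4 SW480 arrays, at -0.63 to -0.52. With the mean of probe sets the SW480 change was -0.98. All 7 of its probe sets read lower in both comparisons. In spheres the changes of these probe sets ran from -0.90 to -0.16, and in the arrays labelled Snail from -1.92 to -0.57, the greatest in a dimmer probe set with a mean of 6.38.

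**Figure D3:**
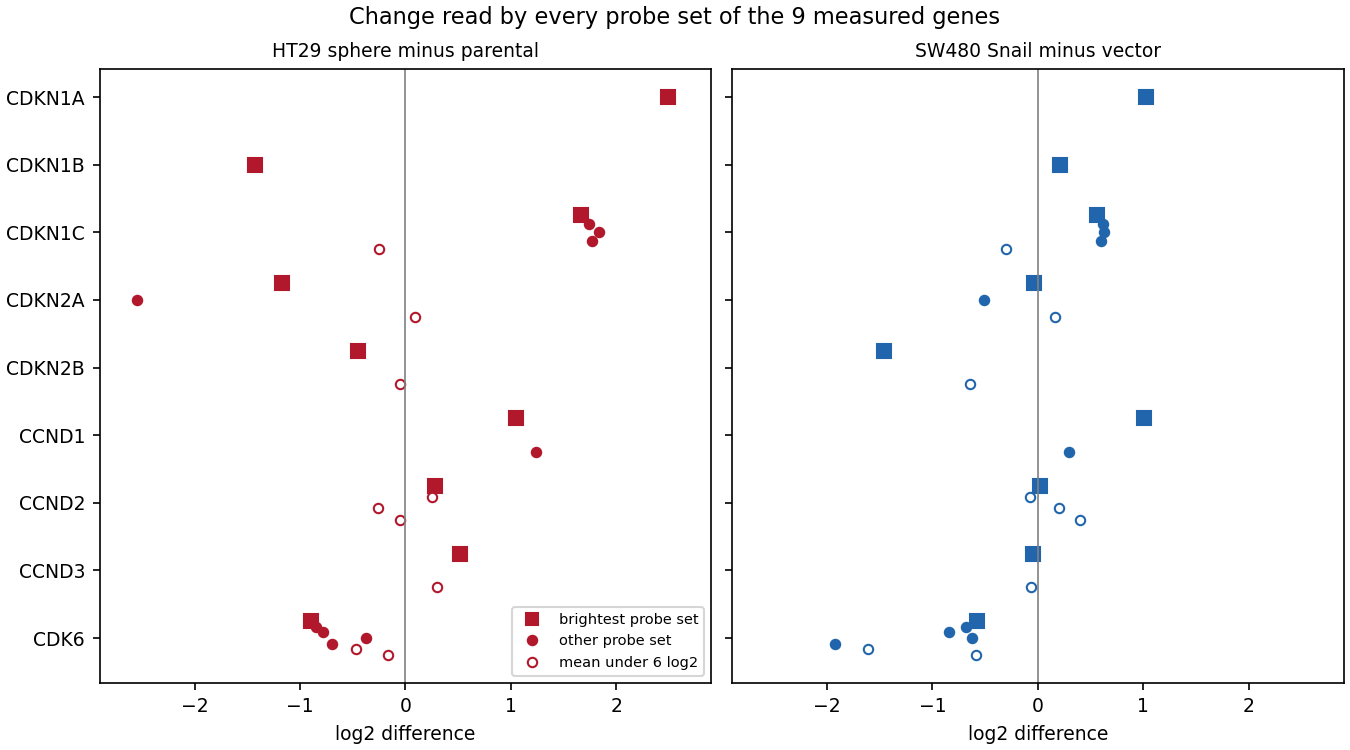
Log2 difference (horizontal axis) read by each of the 27 probe sets of the 9 genes, in HT29 spheres minus parental cells and in SW480 arrays labelled Snail minus vector; squares are the brightest probe set of a gene, and open symbols have a mean under 6 log2. All 7 CDK6 probe sets lie left of 0 in both panels, while those of CCND1 are 1.01 and 0.29 in the arrays labelled Snail.

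Set side by side, the order of the groups differed between genes. The share of all genes without overlap was not computed, so a lack of overlap between pairs of arrays is a description only. CDKN1A was highest in spheres, then in the arrays labelled Snail, in vector cells and in parental HT29 cells, with no overlap between neighbours, though vector and parental cells did not differ past the threshold (limma adjusted p = 0.0845). CDKN1B ran from parental HT29 cells down through the arrays labelled Snail and vector cells to spheres, again with no overlap, though the middle 2 groups did not pass in the test above. CCND1 ran from the arrays labelled Snail through vector cells and spheres to parental HT29 cells with no overlap. For CDKN1C, the arrays labelled Snail, parental HT29 cells and vector cells overlapped below spheres, and for CDKN2A, spheres, vector cells and the arrays labelled Snail overlapped below parental HT29 cells. For CDKN2B, parental HT29 cells overlapped with vector cells, and the arrays labelled Snail were lowest. CCND3 was highest in both SW480 groups, which overlapped, and CDK6 was lowest in spheres and in the arrays labelled Snail, which overlapped.

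Between vector SW480 cells and parental HT29 cells, 5 of the 9 genes differed, against 46.1% of all genes. CCND2 was higher in vector SW480 cells by 5.36 ± 0.16 log2 (limma adjusted p = 3.19e-09), but its HT29 values lay below the array medians, so the size is uncertain. Its probe set was chosen by the mean over the 8 arrays, which its SW480 values raise, so the choice favours a large difference. Its other probe sets, dimmer over the 8 arrays, gave smaller differences, 2.38 and 1.71, both called, and 0.53, which did not pass (limma adjusted p = 0.0525). The last of these read 5.21 and 5.64 in the parental arrays, against 3.65 and 4.14 by the probe set used. CCND1 was higher by 2.23 ± 0.21 (limma adjusted p = 9.31e-06) and CCND3 by 0.93 ± 0.12 (limma adjusted p = 0.000119). CDKN1B was lower by 0.73 log2 and CDKN2A by 1.24 log2. Line, medium and handling cannot be told apart here. A second probe set of CDK6 was lower in vector SW480 cells by 0.53 and 3 of its dimmer ones were higher there, by 0.81 to 1.49, so the direction for CDK6 depends on the probe set.

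Other genes of the G1 machinery were mostly lower in spheres. Of 22 measured, 15 fell, 2 rose and 5 did not pass, against 19.0% of all genes lower and 12.4% higher. The median change was -0.84 log2, beside 0.04 over all genes. CDK4, the partner kinase of CDK6, averaged 10.47 ± 0.05 in spheres and 11.17 ± 0.25 in parental cells, and CDK2 averaged 7.99 ± 0.07 and 8.77 ± 0.33 (SD, n = 2 each); both fell. The E cyclins CCNE1 and CCNE2 fell by 0.96 and 1.66 log2, and RB1 fell by 1.17 ± 0.14 (limma adjusted p = 0.000138). The parental arrays of CCNE2 lay apart, at 8.42 and 7.38, so the size of its fall is uncertain. E2F1, an activator, fell by 1.02 log2, and E2F7 and E2F8, E2F repressors that are themselves E2F targets, changed by -3.48 ± 0.23 and -2.87 ± 0.18, both called. E2F8 and E2F7 averaged 4.89 and 5.21 in spheres, below the array medians, so the sizes of these falls are uncertain. TFDP1, the dimer partner of E2F factors, fell by 1.39. E2F6 and E2F4, known mainly as repressors, were the 2 that rose, by 0.93 and 0.48. CDKN2D, the INK4 gene outside the set, changed by -0.41 and did not pass (limma adjusted p = 0.0816).

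In SW480, 7 of these 22 genes rose, none fell and 15 did not pass, against 8.91% of all genes higher and 7.34% lower. The median was 0.06 log2, beside 0.01 over all genes. E2F6 rose by 0.87 ± 0.12 (limma adjusted p = 0.00106), CCNH, the cyclin of the CDK-activating kinase, by 0.85, TFDP2 by 0.74 and RB1 by 0.71. CDK4, CDK2, CCNE1, CCNE2 and E2F1 did not pass, at -0.29, 0.13, -0.42, -0.48 and -0.29. The count of 7 fell to 4 without vector array 1, 3 without vector array 2, 3 without Snail array 1 and 2 without Snail array 2. For RB1 the HT29 change minus the SW480 change was -1.88 ± 0.20 log2 (limma adjusted p = 0.000105).

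The genes downstream separated the 2 comparisons. All 23 measured E2F target genes of S phase fell in spheres, with a median of -1.89 log2, and all 24 genes of G2 and mitosis fell, with a median of -1.48. Of all genes 19.0% fell. TYMS, which makes thymidylate, fell 6.20-fold, CDT1, which licenses replication origins, 3.71-fold, and MCM2, a subunit of the replicative helicase, 4.80-fold. Among mitotic genes AURKB fell 5.65-fold, TOP2A 4.73-fold, CDC25C, a phosphatase that activates CDK1, 3.68-fold and MKI67, the proliferation antigen Ki-67, 2.09-fold. In the arrays labelled Snail, 2 of the 23 S phase genes rose, 2 fell and 19 did not pass, with a median of -0.04. Among all genes 8.91% were higher there and 7.34% lower, so this count lies near the share over all genes. ORC1 and MCM6 rose there by 1.04 and 0.76, and TYMS and RRM2, a ribonucleotide reductase subunit, fell by 0.61 and 0.58. Leaving out any 1 SW480 array left 1 call among the 23, and so did the mean of probe sets. CENPE, a kinetochore motor, was the 1 mitotic gene of 24 that rose, by 0.74, and none fell. Of the 24, 0 were called without vector array 2, Snail array 1 or Snail array 2, and 4 were called without either parental array. The count was 2 to 4 under 6 of the other alternatives. The difference between the changes passed, lower in HT29, for 23 of 23 S phase genes and 23 of 24 mitotic genes, against 16.9% of all genes. Spheres thus combined higher CDKN1A and CDKN1C and low E2F target genes with higher CCND1 and CCND3 and lower CDKN1B, CDKN2A and CDK6. The arrays labelled Snail had higher CDKN1A and CCND1 and lower CDKN2B and CDK6, with a median change of E2F target genes near 0. The limits given above for CCND1 and CDK6 in SW480 hold here too, among them a CCND1 change of only 0.29 by its second probe set.

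**Figure D4:**
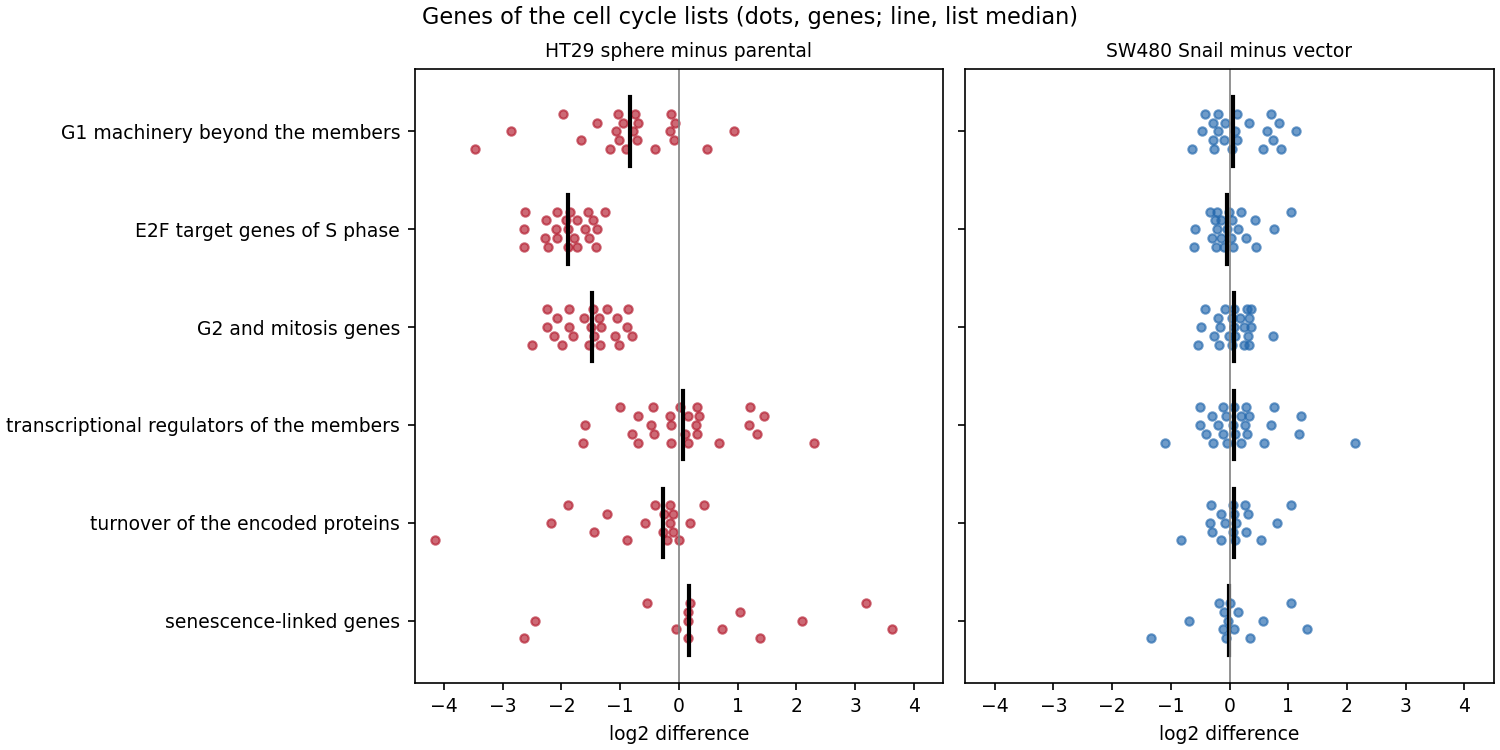
Log2 difference (horizontal axis) of the measured genes of 6 lists around the G1 regulators, in HT29 spheres minus parental cells and in SW480 arrays labelled Snail minus vector, with a dot per gene and a line at the list's median. The S phase and mitosis lists lie wholly left of 0 in spheres, with medians of -1.89 and -1.48, and around 0 in the arrays labelled Snail.

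Among 26 measured transcription regulators known to act on these genes, 6 rose, 9 fell and 11 did not pass in spheres. The shares over all genes were 12.4% higher and 19.0% lower. FOSL1, an AP-1 subunit, rose by 2.30, JUN by 1.44, KLF4, an activator of CDKN1A in gut epithelium, by 1.21, and MYC, a repressor of CDKN1A and CDKN2B, by 1.20 ± 0.15 (limma adjusted p = 0.000193). ETS2 fell by 1.63, EZH2, the Polycomb enzyme that silences the CDKN2A locus, by 1.61 and STAT5B by 1.00. The count of 15 was 9 without sphere array 1. With the label Snail 6 rose, 3 fell and 17 did not pass, against 8.91% of all genes higher and 7.34% lower. EGR1 rose by 2.14, JUN by 1.21 and ID2, an inhibitor of differentiation factors, by 1.18, while FOSL1 fell by 1.09, SMAD3, which carries TGF-beta signals, by 0.51 and ZBTB17, the partner through which MYC represses CDKN2B, by 0.50. MYC changed by -0.20 there (limma adjusted p = 0.45). The count of 9 was 5 without any 1 of the SW480 arrays. FOSL1 thus moved in opposite directions, and the difference was 3.39 ± 0.28 log2 (limma adjusted p = 2.81e-05).

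Of 18 measured genes for the turnover of these proteins, 7 fell, 1 rose and 10 did not pass in spheres. The shares over all genes were 19.0% lower and 12.4% higher. DTL, part of the ligase that destroys p21 and CDT1 during S phase, fell to 5.43 in spheres, below the array medians, against 9.58 in parental cells. SKP2, the F-box protein that marks p27 and p21 for breakdown, fell 4.55-fold, to 8.31 ± 0.12 in spheres against 10.49 ± 0.04 in parental cells (SD, n = 2 each; limma adjusted p = 1.51e-06). FBXO4, an F-box protein linked to cyclin D1, fell by 1.89, and CUL1, a scaffold of such ligases, rose by 0.43. In the arrays labelled Snail FBXO4 rose by 1.04, GSK3B, the kinase that marks cyclin D1 for export and breakdown, by 0.80 and CUL1 by 0.53, UBAC1, part of a ligase of p27, fell by 0.83, and 14 did not pass. The count of 4 called among 18, against 16.2% of all genes, was 2 with the mean of probe sets. SKP2 did not pass there, at -0.30 (limma adjusted p = 0.133). AURKA and CDC20 stand both in this list and in that of mitosis.

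Of 14 measured genes linked to senescence, a lasting arrest, 6 rose, 3 fell and 5 did not pass in spheres. The shares over all genes were 12.4% higher and 19.0% lower. CXCL8, PLAUR and CXCL1 rose by 3.62, 3.18 and 2.10. The parental arrays of CXCL8 lay apart, at 6.74 and 5.66. LMNB1, a nuclear lamin lost in senescent cells, fell by 2.64 ± 0.22 to 5.40, below the array medians, HMGB2 fell by 2.45 ± 0.13 and HMGB1 fell by 0.55. In the arrays labelled Snail 3 rose, 2 fell and 9 did not pass, against 8.91% of all genes higher and 7.34% lower. CXCL8, IGFBP7 and IGFBP3 rose there by 1.32, 1.05 and 0.57, and PLAUR and IL1A fell by 1.33 and 0.69. LMNB1 changed there by -0.09 (limma adjusted p = 0.841). The count of 5 was 3 without vector array 1, 3 without vector array 2 and 2 without Snail array 2.

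Genes whose pattern lay nearest to each regulator were found by the root mean square difference of log2 values, each gene centred on its own mean over the 8 arrays. Nearest to CDKN1A were HSPB8, NMRAL2P and SRXN1, at 0.15, 0.20 and 0.23 log2. Nearest to CDKN1B were MRE11, TPGS2 and PCTP, each at 0.08. Nearest to CDKN2A were LMCD1, TATDN3 and HOXB9, at 0.13, 0.13 and 0.14, and to CDKN2B GPRC5A, HINT3 and C22orf39, at 0.20 to 0.28. CCND1 was nearest to CYB5R2, SH3BP5 and PDP1, at 0.19 to 0.28, and CCND2 to MAP7D2, CHST11 and FERMT2, at 0.20 to 0.23. The nearest to CDKN1C, SLC46A3, SC5D and DSP, lay at 0.28 to 0.32. CCND3 and CDK6 had group means within 1 log2 and were not matched. The 8 values of a gene come from 4 groups of 2, so close patterns are a description.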

How the data were processed

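Affymetrix arrays of 8 samples, 54675 probe sets each, were analysed. The deposited values are log2 expression, made by the authors with RMA, per the submitters' processing notes; its version and probe definitions are not stated there. Probe sets were named through GEO's platform annotation: 41091 name 1 gene, 1801 several, 11721 none, and 62 are controls. Entrez numbers of 41043 matched the RefSeq gene table of GRCh38.p14, used for names, and 0 symbols changed. No detection measure was used.

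Tests used limma 3.58.1 in R 4.3.3 with 1 mean per group over all 8 arrays, 4 residual and 6.10 prior degrees of freedom, two-sided, adjusted over 19775 genes by Benjamini-Hochberg, with a threshold of 0.05. Means are ± SD over 2 arrays. The fit was tested on simulated data. A further list is not reported here. The number of arrays limits the precision. The 10 genes and the 8 gene lists (152 of 160 entries measured) were chosen with earlier results of these data known. Named were SNAI1, CDX2, the 10 genes and a fixed set (CDK4, CDK2, CCNE1, CCNE2, RB1, E2F1, CDKN2D, SKP2, MYC, MKI67). Per list and comparison, up to 3 genes of lowest adjusted p each way were also named. So were the 3 nearest genes of each regulator whose group means span 1 log2 or more. Alternatives were a replicate block, the mean of probe sets, 2 scalings, a filter on dim genes, each line alone, array weights, another variance model, and each array left out.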

Additional observations from a re-analysis of the deposited data

Results flagged for a closer look

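The change in HT29 spheres and the change in the SW480 arrays labelled Snail differed for 5 of the 9 measured genes, tested as the difference of the changes in limma, against 27.5% of all genes. The change was higher in spheres for CDKN1A by 1.46 log2, for CDKN2B by 1.01 and for CCND3 by 0.56, and lower in spheres for CDKN1B, at -1.64, and for CDKN2A, at -1.14. For CDKN2B the change lay within the SW480 line, at -1.46, and the HT29 change of -0.45 did not pass. The differences for CDKN1A, CDKN1B and CDKN2A passed under each alternative that was run, and those for CDKN2B and CCND3 did not. Line, medium and treatment all differ between the comparisons and cannot be told apart.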

How the results depend on the processing

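Over 16 alternatives, 505 of 558 values of the 9 genes kept their direction and their side of the threshold, 40 were past it in one fit only and 13 turned sign. Of those 13, 1 passed the test: CDK6 in vector SW480 cells minus parental HT29 cells, 0.37 log2 with the mean of probe sets (limma adjusted p = 0.0154), whose probe sets disagree. With the mean of probe sets the difference between the comparisons also turned for CDK6 (0.37) and CCND2 (-0.084), and 3 members differed in place of 5. In the arrays labelled Snail, CCND2 turned with quantile normalisation (-0.014). With single arrays left out, the changes in the arrays labelled Snail ran from -0.206 to 0.13 for CDKN2A (above 0 without vector array 1 or Snail array 1, at 0.0174), from -0.031 to 0.0762 for CCND2 (below 0 without vector array 2 or Snail array 2, at -0.0119) and from -0.131 to 0.0356 for CCND3 (above 0 without Snail array 1). The CCND1 difference ran from -0.34 (without parental array 2; -0.0077 without vector array 2) to 0.42. Vector minus parental ran from -1.21 to 0.43 (without parental array 2) for CDKN1C and from -0.66 to 0.10 (without parental array 1) for CDKN2B. The cause was not tested.

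With single arrays left out, genes called in the arrays labelled Snail numbered 1447 to 4087 in place of 3213, the low counts with fewer SW480 arrays (1472 and 1602 without vector arrays 1 and 2, 1527 and 1447 without Snail arrays 1 and 2). Members called there numbered 2 to 5 in place of 4, members whose changes differed 3 to 5, and genes called over the 6 cell cycle lists 13 to 39 in place of 30. In spheres genes called numbered 4251 to 5885 in place of 6200, members 6 to 9 in place of 7 and list genes 83 to 93 in place of 94. With a replicate block, 7 members were called in spheres, 4 in the arrays labelled Snail and 4 rather than 5 in the difference. Same-numbered arrays deviated with correlations of -0.06 to 0.06 between groups over all genes. No shared shift by replicate number was seen, but such correlations cannot tell whether cultures were paired. Centring arrays on their median moved the median change of all genes in spheres to 0.16 log2, against 0.04 as reported. Values near or below the array medians may have little signal over background, and no detection measure was used. This limits the size given for CCND2 in HT29 and for E2F7, E2F8, DTL, LMNB1, AURKB and FBXO4 in spheres. The same holds for CDH17, CXCL1, CXCL8, LUM and PECAM1 in parental cells and for CXCL8 and FBXO4 in vector cells. CD3E lay near the array medians in both spheres and parental cells. It also holds for IL1A in SW480 and for CDKN2B and VIL1 in the arrays labelled Snail.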

Other observations

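Beside the INK4 genes on chromosome 9 lie MTAP and the antisense transcript CDKN2B-AS1, chosen after the values of CDKN2A and CDKN2B were seen. MTAP, a methionine salvage enzyme, fell by 0.46 ± 0.13 log2 in spheres (limma adjusted p = 0.0246) and changed by 0.29 in the arrays labelled Snail (limma adjusted p = 0.181). CDKN2B-AS1 was dim, at 3.39 in spheres against 3.58 in parental cells, and passed in neither comparison.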
